A study of Mus musculus with 11 samples.

Results

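Mpo, Elane, Prtn3, Ctsg, Ms4a3 and Prss57 are the genes described here. They were picked by symbol as genes of the promyelocyte, the neutrophil precursor that makes primary granules. Earlier results of these data were known when they were chosen. All 6 were found among the 22600 genes of the merged count table, and all 6 passed the filter on low counts that left 16496 genes for testing. RNA came from whole distal tibiae of 24-week-old mice of strain C57BL6/SJL fed ad libitum, with 1 library per mouse, for 4 Control mice (genotype BMAd-WT) and 7 BMAd-DTA mice. The comparison asked whether the transcripts of this precursor stage differ in bone whose marrow adipocytes (BMAds) were depleted. By the study's methods, both groups carried Osterix-FLPo and FAC, an Adipoq-Cre that FLPo has to turn on, so the controls carry both recombinases too. BMAd-DTA mice also carried ROSA-DTA, a diphtheria toxin A gene behind a floxed STOP. Some BMAds remain in the distal tibia of BMAd-DTA mice by the study's account, which names incomplete recombination as 1 possible reason.

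Primary, or azurophil, granules are packed while the neutrophil precursor is a promyelocyte, and transcription of their cargo largely stops as the cell matures, although the proteins persist in blood neutrophils. Mpo encodes myeloperoxidase, which makes hypochlorous acid from hydrogen peroxide and chloride. Elane (neutrophil elastase), Prtn3 (proteinase 3), Ctsg (cathepsin G) and Prss57 (neutrophil serine protease 4) encode the granule serine proteases, and Ms4a3 encodes a membrane protein that marks granulocyte-monocyte progenitors and their early progeny. Messenger RNA of these genes in a whole bone thus comes mainly from early myeloid cells of the marrow rather than from mature neutrophils. In such bulk RNA, fewer cells of a type and less RNA per cell cannot be told apart.

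On GRCm38, with gene bounds from GENCODE M21, 3 of the protease genes shared chromosome 10. Prss57 lay at chr10:79781474-79790961 on the minus strand, Prtn3 at chr10:79874476-79883174 on the plus strand, and Elane at chr10:79886247-79888215 on the plus strand, 3073 bases past the end of Prtn3. Mpo lay at chr11:87793581-87804413 (plus), Ctsg at chr14:56099881-56102574 (minus) and Ms4a3 at chr19:11629496-11640851 (minus). RefSeq promoters (build GRCm38.p6) were matched for 5 of the 6 genes, all but Prss57, and the 250 bases before each RefSeq start were searched on both strands. The motifs were chosen after these promoters had been read. The ETS-type word AGGAAGT, of the kind bound by the myeloid factor PU.1, was in 4 of the 5 (all but Ms4a3) and in 7.69% of 32851 promoters of the same length. It is shown because it was in more of these promoters than any other word searched. It stands in capitals, 5′ to 3′ on the gene's strand, with 20 bases before it and 12 after, all outside the gene's annotated exons.
Elane: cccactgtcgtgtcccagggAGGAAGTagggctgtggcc
Prtn3: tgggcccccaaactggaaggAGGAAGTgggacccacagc
Mpo: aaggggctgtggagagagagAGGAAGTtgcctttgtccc
Ctsg: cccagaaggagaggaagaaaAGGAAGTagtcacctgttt

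These stretches are chr10:79886208-79886246 for Elane, chr10:79879553-79879591 for Prtn3, chr11:87793541-87793579 for Mpo and chr14:56102762-56102800 for Ctsg. The Prtn3 stretch lies inside the GENCODE bounds of Prtn3 given above, because its RefSeq start is downstream of the GENCODE start. The stretches of Elane, Mpo and Ctsg lie before the bounds of their genes. The RefSeq starts of Elane and Mpo are also downstream of their GENCODE starts. In Elane the AACGG and TATAA words given below therefore lie inside its GENCODE bounds. In Elane and Prtn3 the word began 84 and 94 bases before the RefSeq start. It began farther out in Mpo, at 223 bases, and in Ctsg, at 206 bases. Elane and Prtn3, the adjacent pair, also shared the MYB-type word AACGG, at 50 and 55 bases, which 14.5% of all promoters held on either strand. The word TATAA stood 31 bases before the start in Elane and 32 in Prtn3, and once in Ctsg on the opposite strand at 236 bases, against 22.8% of all promoters. The C/EBP-type word TTGCNNAA was in none of the 5 windows and in 9.56% of all promoters. These are matches of letters, and no binding was measured.

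Sequenced depth was even, from 16969529 to 18637663 counts per library. Tissue makeup was less even. The summed CPM (counts scaled to a common library total) of 15 skeletal muscle genes ran from 39.0 to 1523 and were highest in Control replicate 3 and BMAd-DTA replicate 6, whereas the osteoblast sum of Control replicate 1 was 2963 CPM against 11321 or more in every other library. The labels give no sex and legends in the study describe male mice, but Xist had 13810 to 20260 counts in every library, and 4 Y-linked genes together had 0 to 1 count.

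All 6 genes were expressed in each library, and a difference between the groups passed the test for none of them. Together they made up 0.296% to 0.450% of all counts in Control bone and 0.286% to 0.509% in BMAd-DTA bone. At an adjusted p under 0.05 (edgeR quasi-likelihood test, Benjamini-Hochberg), 0 of the 6 were called, where 13 of the 16496 genes tested, or 0.0788%, were. At an unadjusted p under 0.05 the count was also 0 of 6, against 16.4% of all genes, and DESeq2 and limma-voom called 0 of 6 as well. DESeq2 called 5.42% of all genes it tested. The groups overlapped for every one of the 6, while 2.81% of all tested genes had no overlap.

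Mpo, the peroxidase, took the 22nd largest share of counts of all tested genes. Its level in the Control libraries was 2637, 2710.4, 1918 and 2951 CPM, and in the BMAd-DTA libraries it ranged from 1810.2 through a median of 3102 to 3361 CPM. Of the BMAd-DTA mice, 4 exceeded every control and 1 lay under every control, so the larger group spanned the smaller. The means were 2554 ± 445 CPM (SD, n = 4) and 2744 ± 641 CPM (SD, n = 7). The fitted log2 fold change, BMAd-DTA against Control, was 0.10 ± 0.18 (SE; edgeR adjusted p = 0.829), with a 95% interval of -0.29 to 0.50, or 0.818-fold to 1.41-fold.

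**Figure D1:**
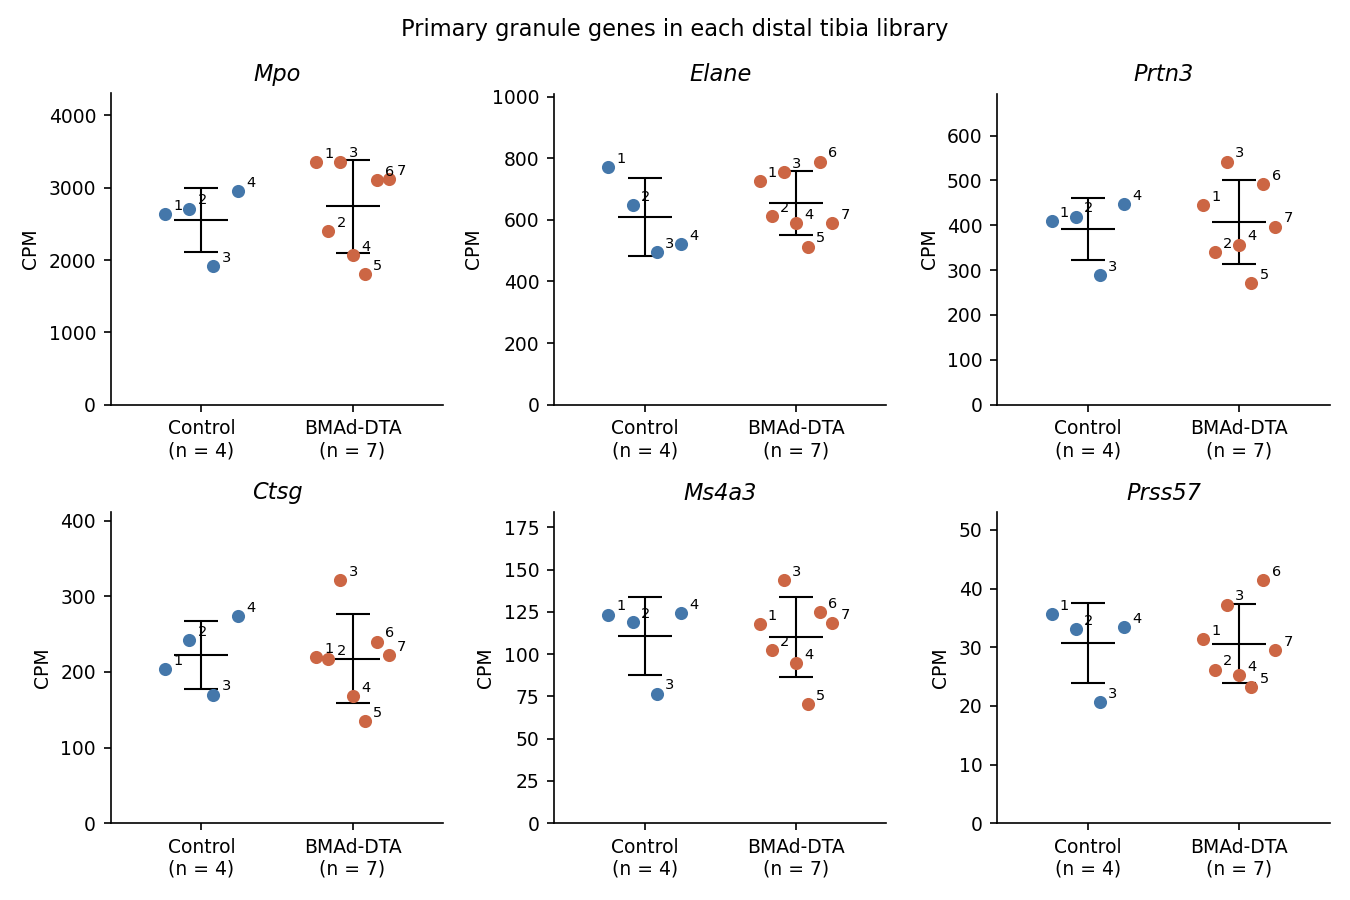
CPM of each primary granule gene (vertical axes, each from 0) in the 4 Control and 7 BMAd-DTA libraries (points, numbered by replicate), with the mean and SD of the group in black. The groups overlap in all 6 panels, and Control 3 and BMAd-DTA 5 sit at the bottom of their group in each.

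Elane, the elastase, had the narrowest spread of the 6, a coefficient of variation of 17.0% over the 11 libraries. Control libraries held 772, 647, 495 and 521 CPM, and BMAd-DTA libraries ran from 513 through 613 to 789 CPM. Only 1 BMAd-DTA mouse lay above the controls and 0 lay below them. Group means were 609 ± 128 CPM (SD, n = 4) and 654 ± 103 CPM (SD, n = 7), a log2 fold change of 0.10 ± 0.14 (SE; edgeR adjusted p = 0.778) with an interval of -0.20 to 0.41. Control replicate 1 was the top control here and in Prss57, and Control replicate 4 in the other 4 genes.

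Prtn3, whose product cleaves many of the same matrix and signalling proteins as elastase, had 410.1, 419, 289 and 447 CPM in Control and 272, 397 and 542 CPM as the lowest, median and highest in BMAd-DTA. The low control, replicate 3, was lower than all BMAd-DTA libraries but 1. Mean levels were 391 ± 69.8 CPM (SD, n = 4) and 407 ± 93.4 CPM (SD, n = 7). The log2 fold change was 0.055 ± 0.17 (SE; edgeR adjusted p = 0.914) with an interval of -0.32 to 0.43.

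Ctsg, the chymotrypsin-like protease of the set, varied most, 2.38-fold between its lowest and highest library. Its Control levels were 204, 242, 169.9 and 274 CPM, and the BMAd-DTA levels ran from 135 through 219 to 321 CPM. Both extremes of all 11 libraries were BMAd-DTA mice, replicate 5 at the bottom and replicate 3 at the top. Means of 222 ± 45.2 CPM (SD, n = 4) and 218 ± 58.5 CPM (SD, n = 7) gave a log2 fold change of -0.031 ± 0.19 (SE; edgeR adjusted p = 0.961), interval -0.45 to 0.39.

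Ms4a3, the progenitor membrane protein, had 123, 119, 76.6 and 124 CPM in Control and ran from 70.3 through 118 to 144 CPM in BMAd-DTA. Here 3 of the 4 controls lay close together and the remaining one, replicate 3, stood apart below them. The means of 111 ± 22.9 CPM (SD, n = 4) and 110.3 ± 23.7 CPM (SD, n = 7) came with a log2 fold change of -0.0077 ± 0.17 (SE; edgeR adjusted p = 0.988) and an interval of -0.38 to 0.37.

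Prss57, the last described of the neutrophil serine proteases, was the least abundant. Control libraries held 35.6, 33.1, 20.7 and 33.5 CPM, and BMAd-DTA libraries 23.2, 29.5 and 41.4 CPM as lowest, median and highest. Again replicate 3 was the low control, in this case the lowest of all libraries. Means were 30.7 ± 6.78 CPM (SD, n = 4) and 30.6 ± 6.66 CPM (SD, n = 7), and the log2 fold change was -0.0055 ± 0.18 (SE; edgeR adjusted p = 0.992), interval -0.38 to 0.37.

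The median log2 fold change of the 6 genes was 0.025, with 3 above and 3 below 0, beside 0.0018 and 50.4% above 0 over all tested genes. Their median absolute log2 fold change was 0.043, against 0.136 for all genes, while their median standard error, 0.17, was above the 0.13 of all genes. The lowest bound of the 6 intervals was -0.45 (Ctsg) and the highest 0.50 (Mpo). An exact permutation test of each gene's log2 CPM, two-sided over 330 splits (smallest possible p 0.00303), gave p of 0.482 for Elane, 0.682 for Mpo and 0.815 to 0.991 for the others. Without Control replicate 3, the low control, the log2 fold changes moved down, to -0.0083 for Mpo and -0.15 for both Ms4a3 and Prss57, and 0 of the 6 were called.

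**Figure D2:**
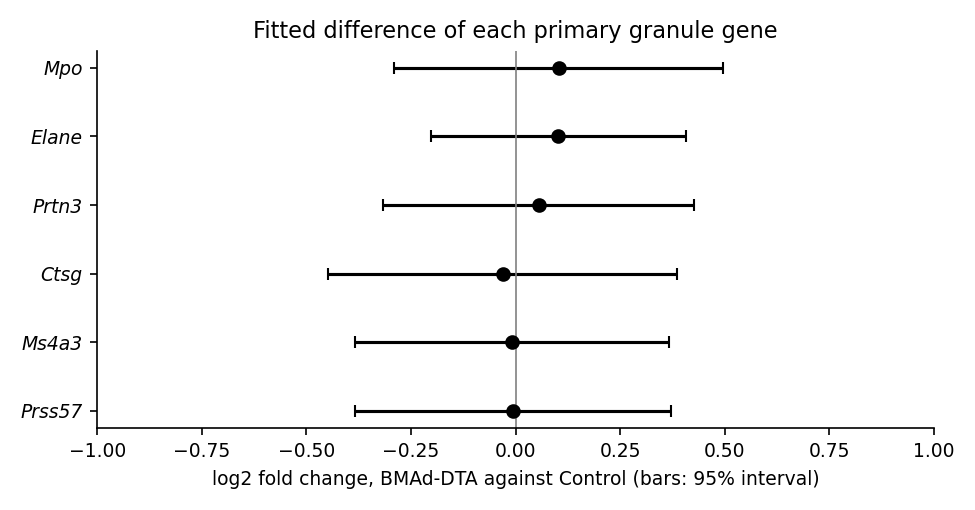
Fitted log2 fold change of each primary granule gene, BMAd-DTA (n = 7) against Control (n = 4), from edgeR (points) with its 95% interval (bars). Every interval includes 0, and together they span -0.45 to 0.50.

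Per kilobase of merged exon, the level in Control bone fell from Mpo at 746 CPM per kb through Elane at 619, Prtn3 at 226, Ctsg at 215 and Ms4a3 at 58.8 to Prss57 at 10.8. In BMAd-DTA bone the values were 801, 664, 235, 211, 58.5 and 10.8 CPM per kb, the same order. The steps from Elane to Prtn3, from Ctsg to Ms4a3 and from Ms4a3 to Prss57 held in 11 of 11 libraries. The neighbours Mpo and Elane were closer, with Mpo ahead in 10 of 11 libraries and by a median of 1.13-fold, and Prtn3 was ahead of Ctsg in 9 of 11, by a median of 1.07-fold. Neither pair was separated by more than its spread over libraries. Within a library, the ratio of Mpo to Prtn3 was 5.79 to 7.85 over the 11 mice on the CPM scale, and that of Mpo to Elane ran from 3.41 in Control replicate 1 to 5.66 in Control replicate 4.

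Counting was by strand, which matters at 3 of the loci. Gm11505 overlaps Mpo, Plppr3 overlaps Prtn3 and Fstl3 overlaps Prss57, each on the opposite strand. Read pairs on the strand opposite to the gene were 0.0602% to 0.272% of the stranded pairs at 5 of the genes and 21.2% at Prss57. When strand was ignored, the pairs assigned to Mpo fell from 521932 to 250181 over all libraries, since pairs that overlap both Mpo and Gm11505 are then left out as ambiguous, and its log2 fold change was 0.12 ± 0.17 (SE; edgeR adjusted p = 0.803).

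Across mice the 6 genes moved together. After each group's mean was removed from log2 CPM, the 15 pairs of these genes had Pearson correlations of 0.55 to 0.96 over the 11 libraries, with a median of 0.89. Adjusted over the 57 relations computed, 13 of the 15 pairs had p under 0.05 in an exact permutation test, two-sided, that reordered libraries within groups (120960 orders), and 10 of the 15 did by Spearman's rho. By Pearson's r, the pairs that did not were Elane with Mpo (r = 0.66, adjusted p = 0.137) and Elane with Ctsg (r = 0.55, adjusted p = 0.248). Both genes of a pair are scaled by the same library total, so part of any such correlation can come from the scaling.

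The tightest pair was Prtn3 with Ms4a3, on chromosomes 10 and 19, with r = 0.96 and Spearman's rho = 0.91 (exact permutation p = 0.000149, adjusted 0.00353, and 0.000885, adjusted 0.0102, n = 11). Leaving out Control replicate 3 and BMAd-DTA replicate 5, the libraries farthest from the median of centred Ms4a3, left r at 0.92. In each such check the median was that of a single measure of the pair. Mpo with Ctsg had r = 0.89 and rho = 0.87 (exact permutation p = 0.000190, adjusted 0.00353, and 0.00107, adjusted 0.0102, n = 11), and r = 0.84 without BMAd-DTA replicates 3 and 5. Prtn3 and Elane, whose genes are 3073 bases apart, had a lower r of 0.76 and rho of 0.65 (exact permutation p = 0.0103, adjusted 0.0451, and 0.0382, adjusted 0.163, n = 11). Without the libraries farthest from the median of centred Prtn3, r was 0.54. The adjacent genes were thus not the most alike of the 15 pairs. Over all 15 pairs, r without the farthest libraries lay between 0.25 and 0.92, and rho between 0.45 and 0.95.

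BMAd-DTA replicate 5 was the lowest of its group in all 6 genes, -0.33 to -0.64 from the group mean on the log2 scale, and Control replicate 3 was below its mean by 0.28 to 0.54. At the other end, BMAd-DTA replicate 3 was 0.23 to 0.61 above its mean. Low and high mice occurred within both groups, and for each gene the SD within either group exceeded the difference between the group means.

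**Figure D3:**
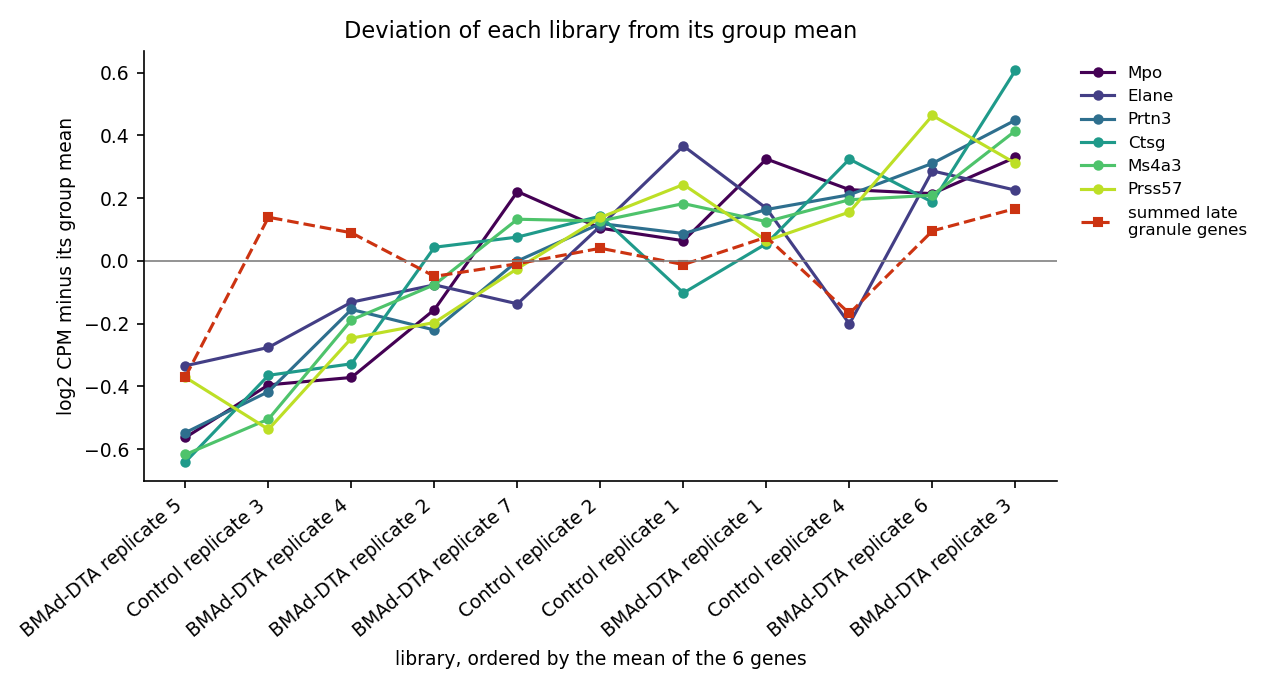
Deviation of log2 CPM from the group mean (vertical axis) in each of the 11 libraries, ordered from left to right by the mean of the 6 primary granule genes (solid lines), with the summed late granule genes dashed. The solid lines rise together from BMAd-DTA replicate 5 to BMAd-DTA replicate 3. The dashed line stands above 0 in Control replicate 3, where the 6 genes are low, but is low with them in BMAd-DTA replicate 5, at -0.37.

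Genes of the later granules are transcribed from the myelocyte onward. None of the 6 genes correlated with the summed CPM of the 21 late granule genes at an adjusted p under 0.05 (r from 0.27 to 0.51, adjusted p of 0.280 or more, exact permutation, n = 11). Without the libraries farthest from the median of that sum, r was -0.052 to 0.25. Whether these correlations differ from those among the 6 genes was not tested, and single late granule genes reached r = 0.79 (Cd177) with the mean profile of the 6. Control replicate 3 had the highest late granule sum of all mice, 32427 CPM, beside the lowest primary granule sum of the controls, 2969 CPM. The primary granule sum was accordingly 9.16% of the late granule sum in that mouse, against 13.8%, 14.3% and 16.6% in the other controls and 10.8% to 16.1% in BMAd-DTA mice. BMAd-DTA replicate 5 instead had the lowest sum of all mice for both, 22351 CPM late and 2824 CPM primary. The same mouse had the lowest pan-leukocyte sum, 3731 CPM, and the highest erythroid sum, 37616 CPM. Correlations with the sums for skeletal muscle (r from -0.15 to 0.31), proliferation (-0.26 to 0.30), osteoblasts (-0.34 to 0.34), monocytes (0.039 to 0.43), erythroid cells (-0.59 to 0.031) and pan-leukocyte genes (0.48 to 0.63) did not pass the adjusted threshold for any of the 6 genes. The smallest adjusted p among these was 0.146 for Pearson's r and 0.0724 for Spearman's rho (Mpo with the erythroid sum, rho = -0.71, exact permutation, n = 11). Without the libraries farthest from the median of each sum, r was 0.30 to 0.58 for proliferation and -0.13 to 0.23 for pan-leukocyte genes. It was then -0.45 to 0.038 for erythroid cells, 0.15 to 0.35 for monocytes, -0.14 to 0.23 for osteoblasts and -0.40 to 0.0076 for skeletal muscle. These values were not tested. Correlations with the summed B lymphoid genes were not computed. The 12 genes of that list had r of -0.77 (Ebf1) to -0.17 (Dntt) with the mean profile of the 6, with a median of -0.53, also not tested.

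By likeness to the mean profile of the 6 genes over the 11 libraries, the nearest of the other tested genes were Crtc3 (r = 0.96), D16Ertd472e (0.95), Cst7 (0.95), Dtx4 (0.93), Impa2 (0.93), Pgd (0.92), Clec12a (0.92), Mboat7 (0.92), Trerf1 (0.91) and Lman2 (0.91). They were picked for this likeness out of all tested genes, so the values are a description. Cst7, a cystatin, and Clec12a, an inhibitory C-type lectin receptor, were also on the list of other promyelocyte genes. Pgd encodes 6-phosphogluconate dehydrogenase, of the pentose phosphate pathway that supplies NADPH, and Lman2 a cargo receptor of the secretory pathway. None of these 10 was called between the groups by edgeR, with log2 fold changes of -0.031 to 0.22.

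Other promyelocyte genes also gave no calls between the groups. For this list and those that follow, the shares over all tested genes were 0.0788% called by edgeR and 16.4% with an unadjusted p under 0.05. Of the 12 listed, 11 were tested (Bpi was too low), edgeR and DESeq2 called 0, and 1, Igsf6, had an unadjusted p under 0.05. The median log2 fold change was 0.019, beside 0.0018 for all genes. Lyz2, the lysozyme gene that macrophages also express, was the most abundant, with 2508 ± 206 CPM (SD, n = 4) in Control and 2550.0 ± 257 CPM (SD, n = 7) in BMAd-DTA. The extremes were Mgst2, a microsomal glutathione transferase, at -0.29 ± 0.16 (SE) and Cst7 at 0.20 ± 0.18 (SE), with adjusted p of 0.396 and 0.633 in edgeR.

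Among 15 genes that process, sort or release granule proteins, 1 was called higher and 0 lower by edgeR, against 0.0788% of all tested genes. The median log2 fold change was -0.033. The called gene was Cd63, a tetraspanin of granule and lysosome membranes that many cell types express, including cells of bone. Its level was 139.5 to 153 CPM in Control and 192 to 251 CPM in BMAd-DTA. In this gene 7 of 7 BMAd-DTA mice were above all 4 controls, where 2.81% of all tested genes had no overlap. The log2 fold change was 0.51 ± 0.077 (SE; edgeR adjusted p = 0.0326), and in the alternatives the adjusted p ranged from 1.04e-06 (DESeq2) to 0.142. The call was lost without Control replicate 1 (adjusted p = 0.142) or 2 (0.129) and without BMAd-DTA replicate 1 (0.0560), 4 (0.0547) or 6 (0.0658). It was also lost with the skeletal muscle covariate (0.0666), with libraries scaled to the pan-leukocyte (0.0893) or late granule genes (0.0674), and without Control replicate 3 and BMAd-DTA replicate 6 together (0.0588). The osteoblast genes moved in the same direction: 10 of 10 had a higher fitted level in BMAd-DTA and 10 an unadjusted p under 0.05. Of these genes edgeR called 1, Alpl, and DESeq2 called 8. Their sums were 2963 to 12982 CPM in Control and 15370 to 36139 CPM in BMAd-DTA. The part of the osteoblast genes in the Cd63 difference was not tested. Ctsc, the dipeptidyl peptidase that activates the granule serine proteases, was the lowest of the list, at 151 ± 42.5 CPM (SD, n = 4) in Control and 127 ± 13.5 CPM (SD, n = 7) in BMAd-DTA, a log2 fold change of -0.25 ± 0.14 (SE; edgeR adjusted p = 0.398). Calr, the chaperone that binds Mpo precursors and the most abundant gene of the list, stood at 808 and 778 mean CPM.

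Inhibitors of these proteases gave no calls either. Of 12 listed genes 6 were tested, edgeR and DESeq2 called 0, and 1, Serpinb6a, had an unadjusted p under 0.05. The median log2 fold change was 0.020. Serpinb1a, an intracellular inhibitor of elastase, proteinase 3 and cathepsin G and the most abundant of the 6, had means of 201 CPM in Control and 194 CPM in BMAd-DTA.

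Regulators of granulocyte development, namely transcription factors and growth factor receptors, had no member past the test. Of 20 genes 19 were tested (Myc is not analysed here), 0 were called and 0 had an unadjusted p under 0.05 in edgeR, and DESeq2 also called 0. The median was -0.054 and the range -0.20 (Etv6) to 0.19 (Flt3). Csf3r, the receptor of G-CSF and the most abundant by CPM, had means of 540 CPM in Control and 501 CPM in BMAd-DTA, a log2 fold change of -0.11 ± 0.16 (SE; edgeR adjusted p = 0.795).

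Among the 21 late granule genes, 17 had a log2 fold change below 0, and the median was -0.093. None was called by edgeR or DESeq2, and 1, Mmp25, had an unadjusted p under 0.05. Ngp, the most abundant, had means of 9089 CPM in Control and 9103 CPM in BMAd-DTA. Mmp9, the gelatinase, was the highest of the list at 0.45 ± 0.21 (SE; edgeR adjusted p = 0.308), with means of 1301 and 1782 CPM, and osteoclasts are a known further source of it. Cxcr2, the chemokine receptor of mature neutrophils, was the lowest at -0.25 ± 0.12 (SE; edgeR adjusted p = 0.310). Late granule sums ran from 26220 to 32427 CPM in Control and from 22351 to 32400 CPM in BMAd-DTA, overlapping throughout.

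In lists of other cells and processes, the same libraries gave the following. Over all tested genes, 16.4% had an unadjusted p under 0.05 and edgeR called 0.0788%, while DESeq2 called 5.42% of the genes it tested. All 22 proliferation genes had lower fitted levels in BMAd-DTA, 21 with an unadjusted p under 0.05, with a median of -0.31, although edgeR called 0 and DESeq2 called 12, all lower. Mki67, the lowest and most abundant of them, had a log2 fold change of -0.56 ± 0.13 (SE; edgeR adjusted p = 0.072). Of 12 erythroid genes 11 were lower, 7 with an unadjusted p under 0.05, with 0 called by edgeR and 5 by DESeq2. The 11 adipocyte genes were all lower, 8 with an unadjusted p under 0.05, with a median of -0.99. Of these genes edgeR called 1, Retn, and DESeq2 called 3. The 12 B lymphoid genes were all higher, with a median of 0.34 and 0 called by edgeR or DESeq2, 11 monocyte genes had a median of -0.11 with 0 called by edgeR and 1 by DESeq2, and 6 pan-leukocyte genes had a median of 0.032 with 0 called by either. Whether the median of the primary granule genes differed from those of these lists was not tested.

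**Figure D4:**
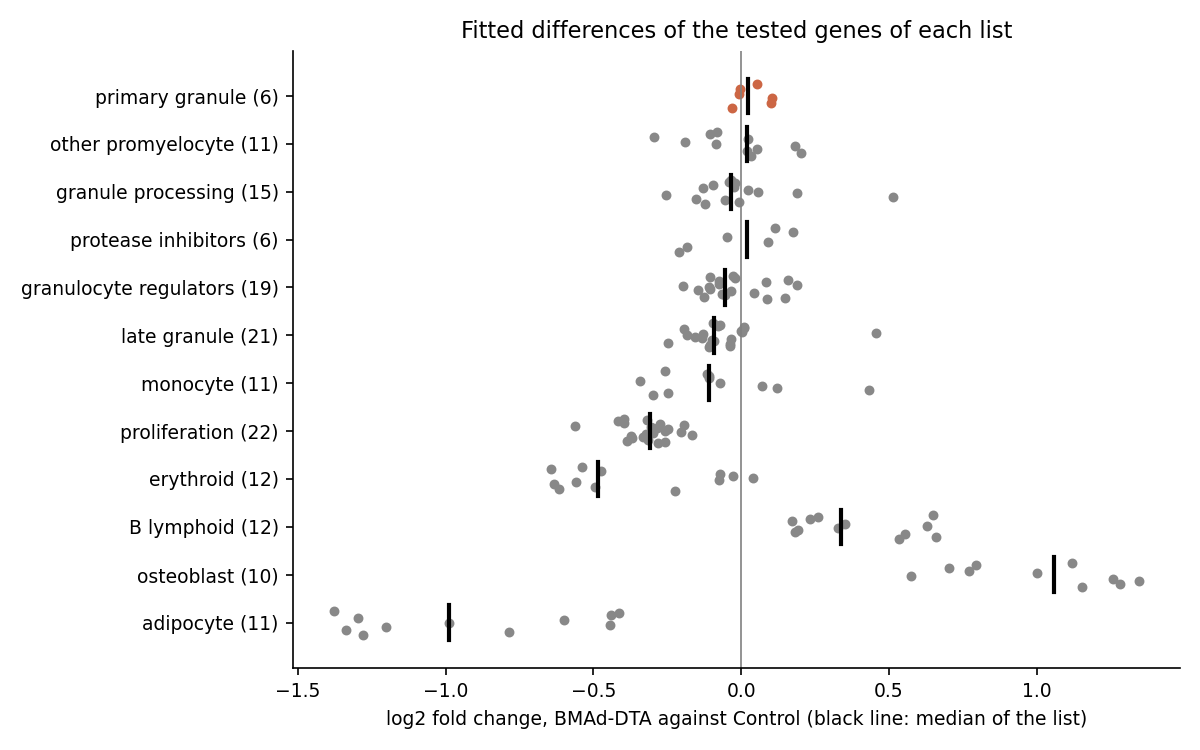
Fitted log2 fold change, BMAd-DTA (n = 7) against Control (n = 4), of each tested gene (points) by list, with the number of tested genes in brackets and the median as a black line. The 6 primary granule genes lie between -0.031 and 0.10, with a median of 0.025, near those of other promyelocyte genes (0.019) and protease inhibitors (0.020). The medians of granule processing (-0.033), granulocyte regulator (-0.054), late granule (-0.093) and monocyte genes (-0.11) are below 0. Those of the proliferation, erythroid and adipocyte genes are further below 0. The B lymphoid median is 0.34 and the osteoblast median 1.06.

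The chromosomal surroundings held 36 other tested genes within 100 kb of the 6. Of these, 0 were called by edgeR, against 0.0788% of all tested genes, and 3 had an unadjusted p under 0.05, against 16.4%. The largest of these differences was in Cfd, which encodes the adipocyte product adipsin (complement factor D) and lies 2638 bases past Elane. It stood at 328 mean CPM in Control and 130.0 in BMAd-DTA, a log2 fold change of -1.34 ± 0.49 (SE; edgeR adjusted p = 0.195), beside 0.10 for Elane. The remaining pair, Mks1 near Mpo and Cdc34 near Prss57, had log2 fold changes of 0.28 and -0.18. Epx, the eosinophil peroxidase gene 59587 bases from Mpo, had means of 715 CPM in Control and 886 CPM in BMAd-DTA, with a log2 fold change of 0.31 ± 0.44 (SE; edgeR adjusted p = 0.789). Mcpt8, a basophil protease gene 14608 bases from Ctsg, and Ms4a2, a subunit of the IgE receptor 5777 bases from Ms4a3, both had log2 fold changes within 0.01 of 0.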

How the data were processed

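The authors passed reads through FastQC 0.11.9, mapped them on mm10 by STAR with its defaults, and deposited raw counts per gene, per library and as a merged table, without normalization. The aligner's version and the annotation release are not given in the sources used here. Every merged value (100%) equalled the stranded count of its library. The main test was the quasi-likelihood test of edgeR 4.0.16 under R 4.3.3 (genotype only, TMM scaling, filterByExpr, two-sided, Benjamini-Hochberg over 16496 genes), and the procedure was tested on simulated data. The standard error is the log2 fold change over the square root of F. CPM use TMM-scaled totals, and log2 CPM a prior count of 2. Alternatives were DESeq2 1.42.0, limma 3.58.1 (voom), other scalings, no filter, unstranded counts, a skeletal muscle covariate and leaving out libraries. The members and lists were chosen with earlier results of these data known. Genes named are the members, and each discussed list's largest, smallest and most abundant gene and called genes. Tested genes within 100 kb and the 10 most like the members are named too. Igsf6, Mmp25 and Cd177 were named after their values were seen. Replicates are numbered in accession order. No 2 libraries of a group agreed within sampling noise.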

Additional observations from a re-analysis of the deposited data

Results flagged for a closer look

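In 42 groups of values tested by Dixon's ratio (the gap of the end value to its neighbour over the range), 4 were flagged, and chance flags about 1 in 20 groups. Control replicate 3 stood apart below the other controls in Ms4a3, at 76.6 CPM, and in Prss57, at 20.7 CPM. The same mouse was the lowest control in Mpo, Elane, Prtn3 and Ctsg without being flagged there. Fold changes without it are given with the results. BMAd-DTA replicate 6 had the highest summed eosinophil, basophil and mast cell genes of its group, 7491 CPM, and Control replicate 1 had the lowest osteoblast sum, 2963 CPM.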

How the results depend on the processing

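None of the 6 genes was called in any of 21 alternatives, and the lowest adjusted p among them was 0.368. Signs of log2 fold changes this close to 0 turned: 8 times for Prss57, 6 for Ms4a3, 4 for Ctsg, 3 for Prtn3, 2 for Mpo and 1 for Elane. With 1 library left out, the values ran from -0.0083 to 0.18 for Mpo, 0.019 to 0.24 for Elane, -0.062 to 0.13 for Prtn3, -0.15 to 0.085 for Ctsg, -0.15 to 0.077 for Ms4a3 and -0.15 to 0.072 for Prss57. With the skeletal muscle covariate Prss57 was at 0.0056. An alternative chosen after seeing the data, without the library of each group highest in muscle genes (Control replicate 3 and BMAd-DTA replicate 6), gave -0.040 for Mpo, -0.032 for Elane, -0.11 for Prtn3, -0.16 for Ctsg, -0.18 for Ms4a3 and -0.24 for Prss57, and 1 gene called over all genes.

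The 6 genes stayed uncalled throughout. Their adjusted p in the main edgeR test was 0.778 or more, so a count of 0 had little room to change. The count of genes called over all genes varied widely. Against 13, it was 845 in DESeq2, 20 in limma-voom, 20 with median-ratio scaling, 2 and 54 with libraries scaled to the pan-leukocyte and late granule genes, and 3 with the muscle covariate. It ranged from 0 (without Control replicate 1 or 2, or BMAd-DTA replicate 1 or 6) to 292 (without Control replicate 3), with 89 without Control replicate 4, 3 without BMAd-DTA replicate 4 and 8 without BMAd-DTA replicate 3. The cause was not tested. Cd63, Alpl and Retn kept their direction in all 21 and their calls in 12, 13 and 16; for Alpl and Retn the call was lost without Control replicate 1 or 2 or BMAd-DTA replicate 1 or 6 (adjusted p 0.0515 to 0.129), and for Alpl also without BMAd-DTA replicate 4 (0.0547), with the muscle covariate (0.0666) and with pan-leukocyte scaling (0.0501); without Control replicate 3 and BMAd-DTA replicate 6 together both were lost (0.0506 and 0.0588). No paired analysis was possible because the labels link no Control mouse to a BMAd-DTA mouse. The standard errors of the 6 genes, with 4 controls, set what could be seen for each. The edgeR p-values set each group difference against the spread between these mice.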
